A study of Homo sapiens with 3 samples.

Results

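SORCS2 was the gene with the second largest number of intragenic YBX1 peaks in both replicates of a chromatin immunoprecipitation sequencing (ChIP-seq) experiment in HEL cells, and the peaks it was named for are described here. Every row of the 2 deposited peak lists whose gene symbols include SORCS2 was kept, which gave 72 of 22874 peaks in replicate 1 and 58 of 17285 in replicate 2. The gene was chosen because 26 regions inside it were shared by both lists, fewer than the 47 of CDH4 and more than the 22 of CAMTA1, so its peak counts and the values of its peaks are given as a description, with no test. HEL is an established human erythroleukaemia line that carries the JAK2 allele V617F. There was 1 treatment group: untreated cells in steady culture, crosslinked in 1% formaldehyde for 5 min, from which YBX1 was precipitated in 2 libraries (replicates 1 and 2). The third library was sheared input chromatin from the same line, and both peak lists were called against it. All libraries come from 1 cell line, separate cultures are not mentioned in the labels, and no mock precipitation was analysed here.

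YBX1 contains a cold-shock domain, through which it binds RNA and DNA, and it takes part in transcription, splicing and translation. SORCS2 encodes a sorting receptor of the VPS10P-domain family, best known in neurons, where it carries membrane proteins through the endosomal system and acts with the neurotrophin receptor NGFR in the response to proneurotrophins. Its gene is long, and most of its length is intron. Tandem repeats are runs of a short sequence unit copied head to tail, and they occur widely in introns and between genes.

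All the tandem repeats under these peaks came down to 6 short units, which are shown because the description below turns on them. They are copied from the authors' repeat labels, which give the unit but not the number of copies. The files do not state the strand of a label; simple repeats are usually labelled as they read on the plus strand.
Pyrimidine-rich 4-base unit, 24 and 21 peaks in replicates 1 and 2: TCCA
Purine-rich 4-base unit, 19 and 15 peaks: TGGA
6-base unit, 5 and 6 peaks: CACCAT
3-base unit, 2 and 1 peaks: TGG
4-base unit without A or C, 1 and 1 peaks: TGGG
3-base unit, 0 and 1 peaks: ATG
The first pair are reverse complements of each other, so both belong to a single repeat family, called ATCC after its alphabetically first rotation. CACCAT belongs in the same way to the family ACCATC, TGG to ACC, TGGG to ACCC and ATG to ATC.

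SORCS2 peaks lay in introns and on ATCC repeats in larger shares than the peaks of the lists as a whole. Introns held 62 of the 72 replicate 1 peaks and 53 of the 58 replicate 2 peaks, or 86.1% (95% Wilson interval 76.3% to 92.3%) and 91.4% (81.4% to 96.3%). Over the whole lists, introns held 36.9% and 36.4%. Because the gene was chosen for shared regions inside it, a large share inside the gene follows from the choice and is not a result. The remaining 10 and 5 SORCS2 peaks were intergenic, upstream of the gene. No peak was annotated to a promoter or exon of SORCS2. Counts of 0 of 72 and 0 of 58 allow shares of up to 4.17% and 5.17%, taking 3 peaks as the limit (Wilson upper bounds 5.07% and 6.21%). Promoters held 3.28% and 3.42% of the lists, which lies within these limits. ATCC repeats held 43 of 72 peaks, or 59.7% (48.2% to 70.3%), and 36 of 58, or 62.1% (49.2% to 73.4%), beside 20.0% and 21.6% of the lists. All simple tandem repeats together held 51 and 45 peaks, or 70.8% (59.5% to 80.1%) and 77.6% (65.3% to 86.4%), beside 51.2% and 58.9%. These intervals cover counting error only, and neighbouring peaks of a repeat share their sequence and are not independent.

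AGAT, the most frequent unit of the lists at 23.5% of replicate 1 and 28.5% of replicate 2 peaks, was not found under any SORCS2 peak. The limits for 0 of 72 and 0 of 58 peaks are those given above for promoters and exons, and the list shares lie above them. Those limits count every peak as independent, whereas the peaks fall at only 24 and 18 sites (defined below). They are therefore too narrow, and no conclusion is drawn from them. ACCATC repeats held 5 and 6 SORCS2 peaks, or 6.94% and 10.3%, beside 1.6% and 2.01% of the lists. The LINE element type HAL1-2a_MD held 6 and 8, or 8.33% and 13.8%, beside 3.38% and 3.33%. Peaks without any repeat label numbered 12 and 4, or 16.7% and 6.9%, beside 26.2% and 22.3%. The few other peaks lay on a MIR3, an MLT2B4 and L2a elements. None of these shares was tested, since the gene was chosen on these lists.

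**Figure D1:**
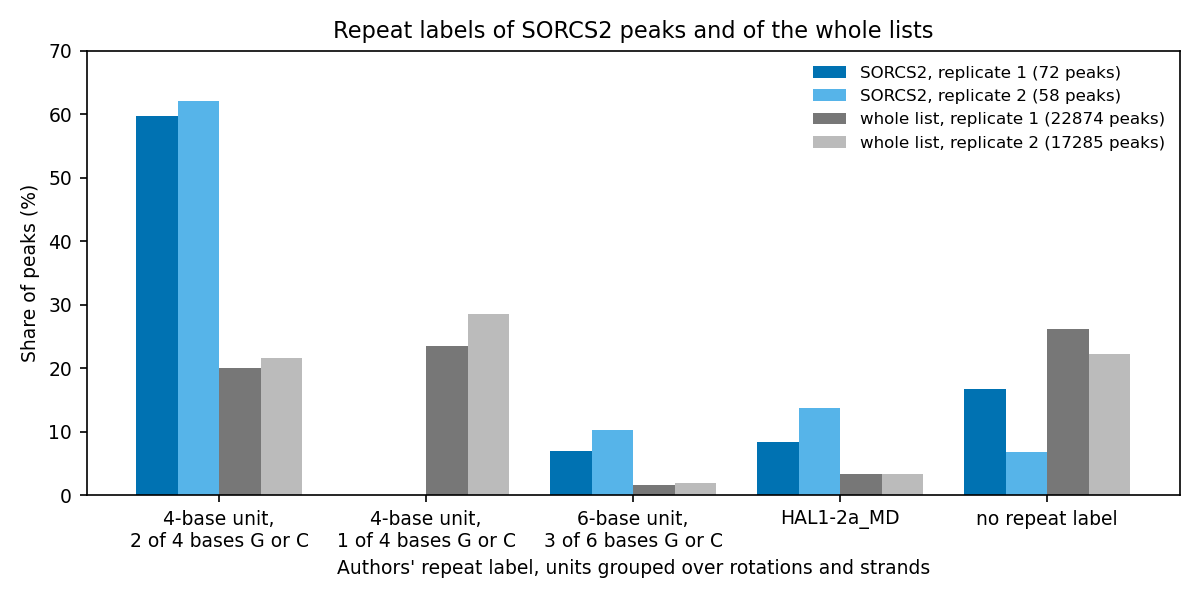
Share of peaks (%, vertical axis) with each repeat label, for SORCS2 peaks (blue, 72 and 58 peaks) and for all peaks (grey) of replicates 1 and 2; the first 3 classes are the ATCC, AGAT and ACCATC families. ATCC repeats stand at 59.7% and 62.1% for SORCS2 beside 20.0% and 21.6% for the lists, and AGAT at 0% beside 23.5% and 28.5%.

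Peaks of both lists that lay less than 1000 bp apart were joined into 24 sites, numbered from the lowest coordinate. All sites are on chromosome 4 (hg19), and intron numbers of the transcript NM_020777, where the authors' labels give them, rise with the coordinate. Sites 1 and 2 lie upstream of the gene and sites 3 to 24 lie in introns. The intronic sites spread over 493651 bp, from 7233150 to 7726800. In that span replicate 1 had 62 peaks and replicate 2 had 53, or 12.6 and 10.7 per 100 kb, and all of them name SORCS2. The same density was 0.63 and 0.505 per 100 kb over chromosome 4 up to its last peak, and SORCS2 peaks made up 5.99% and 6.02% of the chromosome's peaks. A higher density in the span was built in, since the gene was chosen for its shared regions and its own peaks bound the span. The nearest other peak lay 311 kb upstream of site 1, and on the downstream side 60.3 kb after site 24, in both lists. The next peak downstream, in an intron of AFAP1, had 6 tags in each replicate.

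The sites were unevenly spaced along the gene. The distance between neighbouring intronic sites had a median of 13.2 kb and ran from 1.01 kb to 72.8 kb. It was under 10 kb in 7 of 21 cases and over 40 kb in 5. Intron 1 held at least 6 sites (sites 3 to 8), which lie before or among peaks that the authors label with that intron. Sites 9 to 11 lie between labels of introns 1 and 2, site 12 is in intron 2, sites 13 to 16 lie between labels of introns 2 and 3, and site 17 is in intron 3. Sites 18 and 19 lie between labels of introns 3 and 4, site 20 is in intron 4, sites 21 and 22 are in intron 11, and sites 23 and 24 are in intron 11 or later. The transcript has 26 introns, so sites up to number 20, which make up most of the cluster, precede intron 5.

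**Figure D2:**
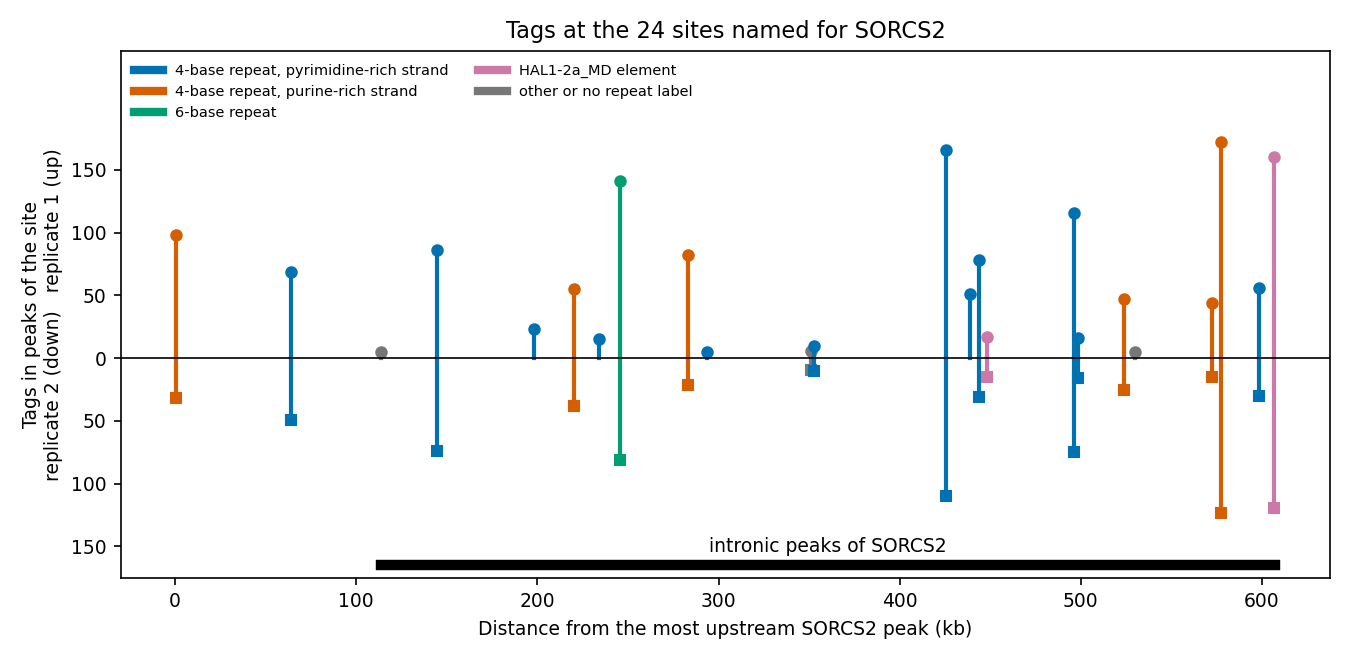
Tags summed over the peaks of each of the 24 sites (vertical axis; circles up, replicate 1; squares down, replicate 2) against the distance of the site from the most upstream peak (kb), coloured by repeat label. The tallest sites, 22, 13, 24, 8 and 17, have 172, 166, 160, 141 and 116 tags in replicate 1, and 6 sites have no replicate 2 peak.

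The letters of the ATCC label, TCCA or TGGA, changed along the gene but never within a site. Peaks labelled TCCA were found at 12 sites and peaks labelled TGGA at 6, and 0 sites held both. Within the introns TCCA was read at 11 sites and TGGA at 5. Because intron numbers rise with the coordinate, the plus strand is the sense strand of SORCS2, and a TCCA label, if written for the plus strand, is also how the transcript would read. Of the ATCC peaks, TCCA made up 55.8% in replicate 1 (41.1% to 69.6%) and 58.3% in replicate 2 (42.2% to 72.9%), beside 48.4% and 48.3% over the lists. The 18 sites with either unit held 78.1% of the SORCS2 tags in replicate 1 and 74.3% in replicate 2.

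A tag is a sequenced read kept after removal of duplicates, and the authors give the number of tags in each peak. SORCS2 peaks held 1523 tags in replicate 1 over 10022 bp and 873 in replicate 2 over 6343 bp, which is 0.395% and 0.348% of all tags in peaks. The median peak had 11.5 tags in replicate 1 (lowest 5, highest 119) and 11 in replicate 2 (lowest 5, highest 92), beside list medians of 9 and 8. Peaks with exactly 5 tags, the lowest number in the lists, made up 12 of 72 and 11 of 58, or 16.7% and 19.0%, beside 21.7% and 22.1% of the lists. Above 50 tags stood 7 replicate 1 and 2 replicate 2 peaks. The SORCS2 peak with the most tags ranked 315 in replicate 1 and 208 in replicate 2, and 0 peaks in either replicate were among the top 1% of a list by tags.

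Median widths and fold enrichments lay between the lower and upper quartiles of the lists, but the wider SORCS2 peaks were wider than those of the lists. The upper quartile of width was 184 bp in replicate 1 and 125 bp in replicate 2, beside 99 bp and 95 bp over the lists. The median width was 89.5 bp in replicate 1 (33 to 629 bp) and 84.5 bp in replicate 2 (32 to 466 bp), beside 70 bp and 69 bp over the lists. The caller modelled fragments of only 20 bp, less than the 36 bp of a tag, so a width does not measure the extent of binding. Fold enrichment is the authors' own value for each peak, which divides the pile of precipitated tags at a summit by the higher of the genome-wide background and the local input. Its median over SORCS2 peaks was 64.4 in replicate 1 (22 to 162) and 54.9 in replicate 2 (20 to 143), beside list medians of 53.9 and 54.4. Above the list median lay 41 of 72 and 29 of 58 peaks. In 36 replicate 1 and 27 replicate 2 peaks the local input lay at or below the genome-wide level, beside 38.9% and 37.4% of all peaks in the lists.

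The same 5 sites had the most tags in both replicates and held 49.6% of the SORCS2 tags in replicate 1 and 58.2% in replicate 2. Site 22, a TGGA array in intron 11 (chr4:7696830-7697829), had 172 tags in 5 peaks of replicate 1 and 123 in 3 peaks of replicate 2. Its highest fold enrichments were 162 and 122. Its downstream region (chr4:7697291-7697761) held 104 and 92 of these tags. There the replicates differ in peaks and labels: replicate 1 had a TGGA peak of 87 tags and a TGGG peak of 17, and replicate 2 had a single peak over the whole region, labelled TGGG.

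Site 13, a TCCA array between labels of introns 2 and 3 (chr4:7545086-7545970), had 166 tags in 3 peaks of replicate 1 and 110 in 6 peaks of replicate 2. All of these peaks carried the TCCA label and stood at the genome-wide background, and the highest fold enrichments were 162 and 109. It is thus a stretch of 885 bp that the lists cover almost without interruption (849 bp and 803 bp). Site 24, the most downstream site (chr4:7725807-7726800), had 160 tags in replicate 1 and 119 in replicate 2, on a TGG repeat followed by a HAL1-2a_MD element. The element part alone, from 7725933 to 7726800, held 147 and 103 tags with highest fold enrichments of 148 and 109, and its peak of 629 bp with 119 tags is the widest SORCS2 peak of replicate 1. Site 17, a TCCA array in intron 3 (chr4:7615483-7616656), had 116 and 75 tags and highest fold enrichments of 135 and 95.2. Its downstream region (chr4:7616123-7616656) held 71 and 49 of these tags.

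Site 8, which starts in intron 1 (chr4:7364323-7365839), differed from the other 4 of these sites in its unit and in having no peak at the genome-wide background. It was the only site with CACCAT peaks, had 141 tags in 7 peaks of replicate 1 and 81 in 8 peaks of replicate 2, and ended in a HAL1-2a_MD peak of 10 and 6 tags. Its highest fold enrichments were 63 and 56.5, below those of the other 4 sites with the most tags. None of its peaks, 0 of 7 and 0 of 8, stood at the genome-wide background, so all of their folds were taken over a higher local input.

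**Figure D3:**
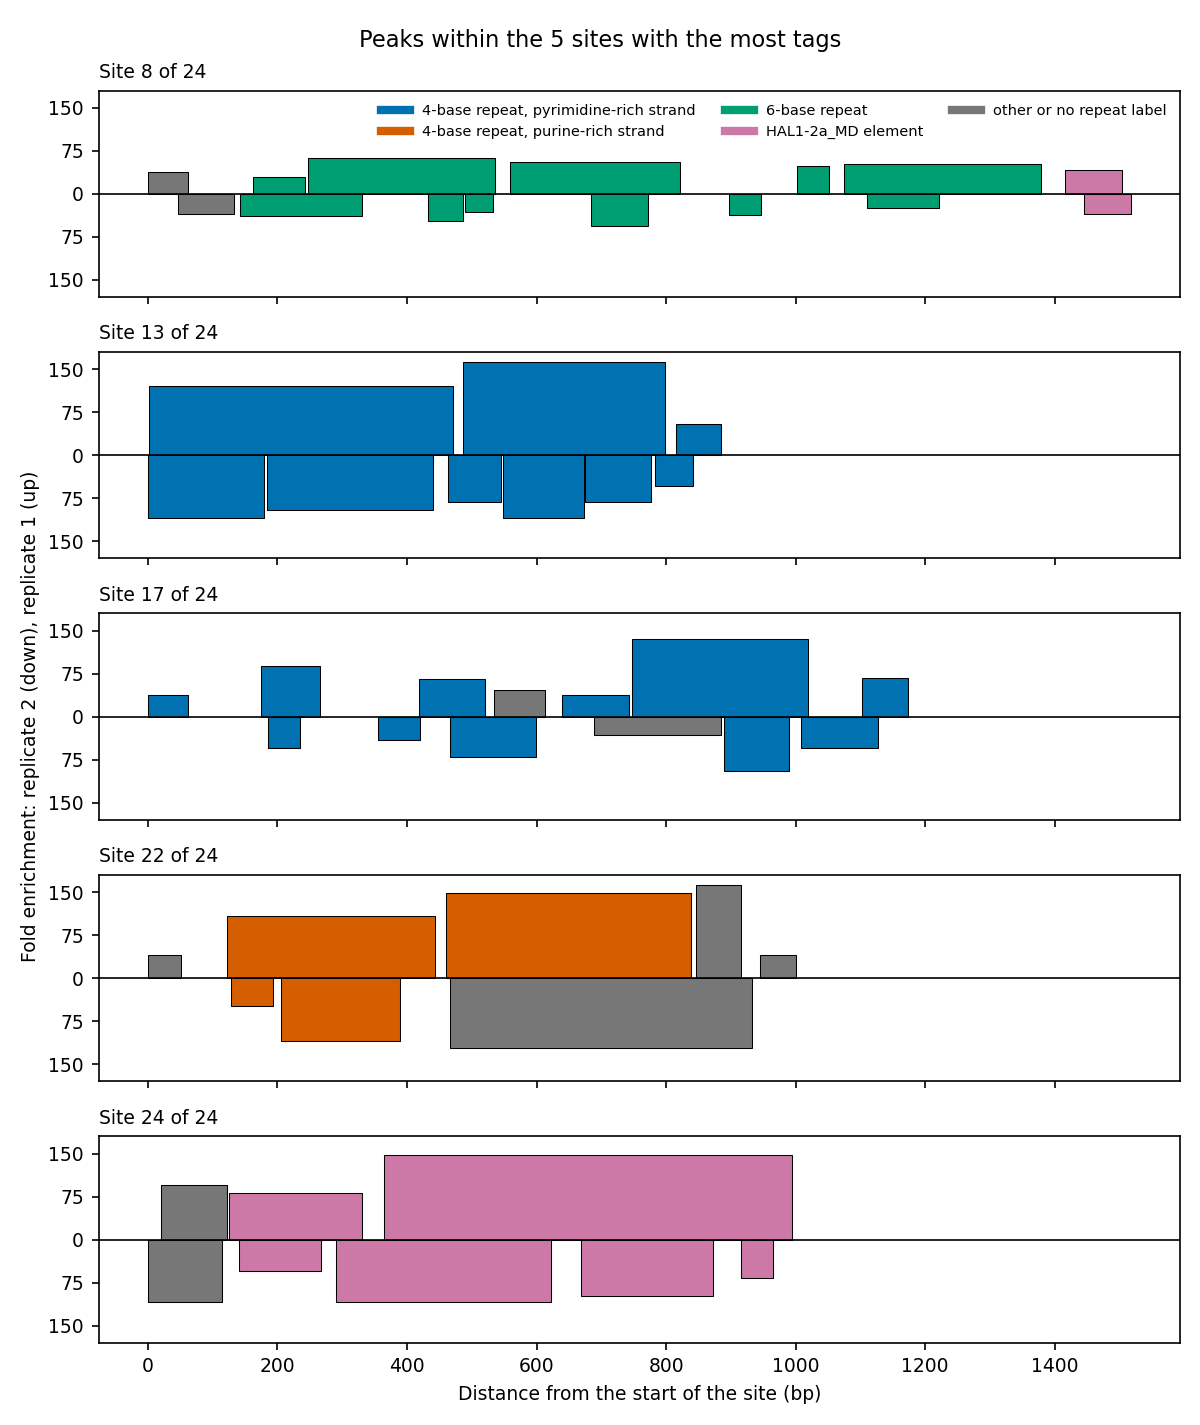
Peaks of replicate 1 (bars up) and replicate 2 (bars down) within the 5 sites with the most tags, drawn to width in bp from the start of the site, with fold enrichment as bar height and repeat label as colour. At site 13 replicate 1 has 3 peaks and replicate 2 has 6, and at site 8 no bar reaches above 63.

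The other sites on ATCC repeats were weaker in tags, and some of them reached similar fold enrichments. Site 2, an intergenic TCCA repeat upstream of the gene (chr4:7183409-7183986), had 69 and 49 tags, and its main peak had 54 and 49 tags with fold enrichments of 142 and 143. By the lower of the replicates' folds this was the strongest SORCS2 region, and with 23.7 and 24.1 tags per 100 bp it was also the densest shared region in both replicates. Site 4 in intron 1 (chr4:7263811-7264355) had 86 and 74 tags and highest fold enrichments of 121 and 109. Site 15 (chr4:7563154-7563672) had 78 and 31 tags. Site 1, a TGGA repeat (chr4:7119665-7120698), had 98 and 32 tags. Its shared region (chr4:7119855-7120406), the most upstream, had 69 and 32. The authors' annotation names GRPEL1, TADA2B, CCDC96, TBC1D14 and other genes for it beside SORCS2. Site 6 had 55 and 38 tags, site 9 had 82 and 21, site 19 had 47 and 25, site 21 had 44 and 15, and site 23 had 56 and 30. In each of the sites named here replicate 1 had more tags than replicate 2.

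At 4 sites with few tags both replicates had peaks. Site 18, a TCCA repeat (chr4:7618029-7618157), had 16 tags in each, and site 12 (chr4:7472056-7472299) had 10 in each, but there the replicates' peaks did not overlap and only that of replicate 2 carried a repeat label, TCCA. Site 11 (chr4:7470943-7471043), labelled TGG in replicate 1 and ATG in replicate 2, had 6 and 9 tags and was the only site with more in replicate 2. Site 16, on a HAL1-2a_MD element (chr4:7567309-7568083), had 17 and 15 tags in 3 peaks each, with highest fold enrichments of 67.4 and 68. Its shared regions were chr4:7567713-7567780, with 6 and 5 tags, and chr4:7568021-7568083, also with 6 and 5 tags but with fold enrichments of 22.0 and 20.0, the lowest of the cluster.

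Replicate 2 had peaks at 18 of the 24 sites, and the other 6 had peaks in replicate 1 alone. Of these 6, sites 3, 10 and 20 had a single peak of 5 tags each. Sites 5 and 7, TCCA repeats in intron 1, had 23 and 15 tags. Site 14, a TCCA repeat (chr4:7558332-7558747), had 51 tags in 2 peaks with fold enrichments of up to 80.9, and replicate 2 listed nothing there. Of replicate 1 peaks with 21 to 50 tags, 12 of 15 at SORCS2 overlapped a replicate 2 peak, beside 96.2% of such peaks over the list. The peaks of site 14 had 19 and 32 tags, and that of 32 tags was the SORCS2 peak with the most tags that had no partner. Since the lists were filtered by the authors and start at 5 tags, a site without a listed peak is not shown to be without tags.

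At the 18 sites found in both replicates the tags went together but were higher in replicate 1. Across these sites, Pearson's r was 0.895 on log2 tags (Spearman's rho 0.927). These values are a description, since the points share both libraries and their input. The highest fold enrichment had a rho of 0.724. Replicate 1 had more tags at 15 sites, equal tags at 2 and fewer at 1. The ratio of replicate 1 to replicate 2 had a median of 1.48 and ran from 0.667 at site 11 to 3.9 at site 9. It also reflects the extent of the listed peaks, which covered 10022 bp at SORCS2 in replicate 1 and 6343 bp in replicate 2. At site 9 they covered 643 bp and 157 bp, with 12.8 and 13.4 tags per 100 bp. At most of the 18 sites, tags per 100 bp were higher in replicate 1. Summed over all peaks it was 1.74 at SORCS2 and 1.54 over the whole lists, while the libraries had 10010819 and 9926271 kept tags, a ratio of 1.01. The cause of this difference was not tested.

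**Figure D4:**
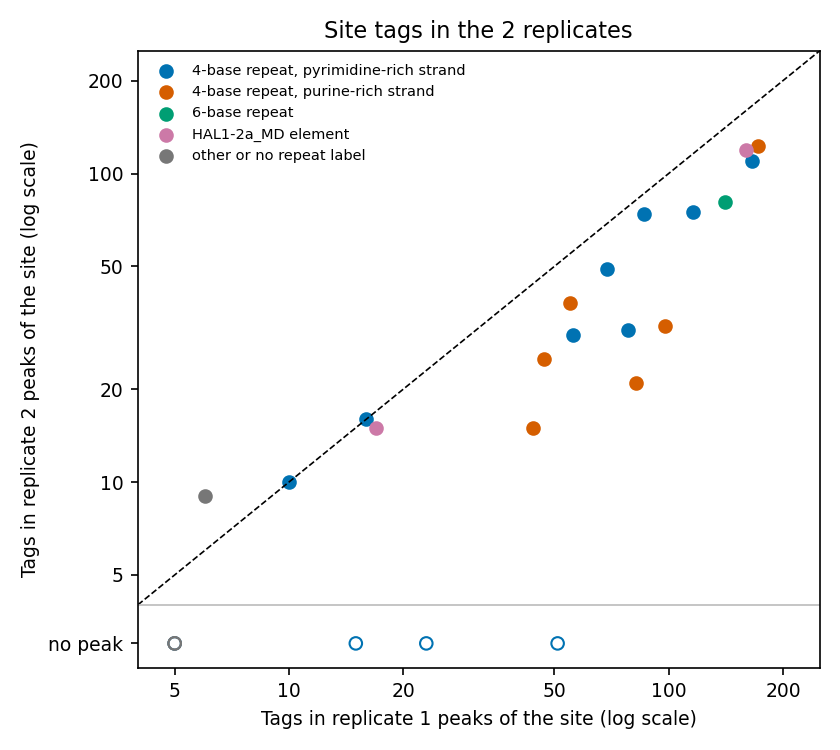
Tags in the replicate 2 peaks of each site against tags in its replicate 1 peaks (both log scale), coloured by repeat label; the dashed line marks equal tags and open circles mark sites without a replicate 2 peak, 3 of which coincide at 5 tags. Of 18 sites with both, 15 lie below the line, and the open circle farthest right is site 14 with 51 tags.

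By overlap of at least 1 bp, 41 of 72 replicate 1 peaks, or 56.9% (45.4% to 67.7%), had a replicate 2 partner, beside 54.0% of the list. Of replicate 2 peaks, 53 of 58, or 91.4% (81.4% to 96.3%), had a replicate 1 partner, beside 77.6%. Among all ATCC peaks of the lists, 63.0% in replicate 1 and 89.9% in replicate 2 had a partner. SORCS2 was chosen for its shared regions, which can raise its own shares, so they are a description and no conclusion is drawn from their intervals. Paired peaks that overlapped each other merged into 28 shared regions, 26 in introns and 2 upstream, which lie at 17 of the sites. Of these regions, 5 lay outside tandem repeats: 4 on HAL1-2a_MD elements at sites 8, 16 and 24, and 1 without a repeat label at the edge of site 8 (chr4:7364323-7364455), with 6 and 11 tags. Shared replicate 1 peaks had a median of 17 tags and unshared ones of 6, and in replicate 2 the medians were 12 and 5.

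Within the arrays the peaks of the replicates often did not match singly. With a reciprocal overlap of at least 50%, 17 of 72 and 17 of 58 peaks had a partner, or 23.6% and 29.3%, whereas 39.3% and 52.0% of the lists did. The summits of overlapping SORCS2 peaks lay a median of 71 bp apart over 66 pairs, and 40.9% lay within 50 bp of each other. Over all pairs of the lists the median was 20 bp and 72.6% lay within 50 bp, and for pairs with an ATCC peak of replicate 1 the values were 29 bp and 62.1%. Of the replicate 1 peaks, 17 overlapped 2 or more replicate 2 peaks, up to 4, and 13 replicate 2 peaks overlapped 2 or more of replicate 1. A further peak of the same list lay less than 1000 bp away from 66 of 72 and 54 of 58 SORCS2 peaks, or 91.7% and 93.1%, beside 69.4% and 64.8% of the lists. Gaps between neighbouring peaks within a site had medians of 27 bp in replicate 1 and 34 bp in replicate 2, and the shortest was 1 bp in each.

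The other genes with the most shared regions were CDH4, which encodes a cadherin, CAMTA1, a calmodulin-binding transcription activator, and PTPRN2, a receptor-type protein tyrosine phosphatase. With intragenic peaks alone, SORCS2 had 62 and 53, CDH4 93 and 83, CAMTA1 49 and 35, and PTPRN2 58 and 35. Over the span of these peaks in each replicate, SORCS2 had 12.6 and 11.4 per 100 kb and CDH4 16.0 and 16.0. CAMTA1 had 6.52 and 4.66, and PTPRN2 6.75 and 5.0. ATCC repeats held 59.7% and 60.4% of the intragenic SORCS2 peaks, more than the 39.8% and 51.8% in CDH4, 31.0% and 31.4% in PTPRN2 and 8.16% and 14.3% in CAMTA1. Median fold enrichment was 66.7 and 56.5 in SORCS2, 40.9 and 37.3 in CDH4, 42.0 and 42.6 in CAMTA1, and 53.9 and 54.4 in PTPRN2. AGAT peaks were few in all 4 genes, at 0 and 0 in SORCS2, 2 and 1 in CDH4, 1 and 3 in CAMTA1, and 2 and 0 in PTPRN2. HAL1-2a_MD elements held 9.68% and 15.1% of the intragenic SORCS2 peaks. Their shares were 11.8% and 14.5% in CDH4, 12.2% and 20.0% in CAMTA1, and 22.4% and 28.6% in PTPRN2. In PTPRN2 the ATCC peaks were nearly all read as TCCA (17 of 18 and 11 of 11), whereas SORCS2 held 23 TCCA and 14 TGGA in replicate 1 and 20 and 12 in replicate 2. These genes were all chosen for their counts, and the differences were not tested.

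The genes with repeat labels most like those of SORCS2 in replicate 1 were FAM19A5, SHANK2 and PRDM16. Likeness was the summed overlap of the shares of peaks in each repeat class (1 for identical shares), ranked in replicate 1 over 52 other genes with at least 15 intragenic peaks there. It was 0.837 for FAM19A5 with 16 and 11 peaks, 0.832 for SHANK2 with 36 and 25, and 0.825 for PRDM16 with 15 and 14. In replicate 2 the values were 0.804, 0.844 and 0.732, and the order was another one: there CDH4 was highest at 0.864, and HMCN2 at 0.837 and TRAPPC9 at 0.827 also stood above FAM19A5 and PRDM16. ATCC repeats held 8 of 16 and 8 of 11 peaks in FAM19A5, 23 of 36 and 19 of 25 in SHANK2, and 10 of 15 and 10 of 14 in PRDM16, so shares of the size seen in SORCS2 or above were found in other genes. Each of the 3 genes had 0 AGAT peaks in both replicates.

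The other VPS10P-domain receptor genes carried at most 4 peaks in a replicate. Of the 4 genes, all were named for a peak and 2 for a shared one, whereas of the 10830 genes named in either list 66.7% had a shared peak. SORCS3, a sorting receptor of the same subfamily, had 4 peaks in each replicate, 2 of them shared, with up to 18 and 19 tags. Of its peaks, 2 in replicate 1 and 4 in replicate 2 were intragenic. SORCS1, the third member of that subfamily, had a single intronic TCTA peak of 6 tags in each replicate. SORL1, a sorting receptor of the amyloid precursor protein, had 0 and 3 peaks of at most 5 tags, and 2 of these were intragenic. SORT1, which encodes sortilin, had 1 intergenic peak of 6 tags in replicate 1 alone.

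Of 8 genes of neurotrophins and their receptors, 4 were named for a peak and 3 of these for a shared one, beside 66.7% of all named genes. NTRK3, the receptor of neurotrophin-3, was named for 6 and 2 peaks with up to 15 and 11 tags, of which 2 and 1 were intragenic. NGFR, the receptor with which SORCS2 acts in neurons, was named for 1 peak of 8 tags in replicate 1 and none in replicate 2. That peak lay outside the gene, on a HAL1-2a_MD element.

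Around SORCS2 on chromosome 4, many genes were named for peaks. The lists named 21 of the 24 neighbouring genes. A shared peak was found for 20 of these 21, beside 66.7% of all genes named in either list. However, GRPEL1, TADA2B, CCDC96 and TBC1D14 were named for site 1 itself, and BLOC1S4, MRFAP1, MRFAP1L1 and S100P for 1 common intergenic peak. The share of all genes that is named, or that has an intragenic peak, was not computed. Whether the counts of named genes are unusual, here or in the gene lists above, was therefore not tested. Intragenic peaks were found in 11 of the 24, and all 11 had a shared one, whereas 58.7% of all genes with intragenic peaks did. SH3TC1 had 8 and 11 intragenic peaks, and EVC2, a ciliary protein gene, had 12 and 8. The strongest intragenic peak of the neighbourhood lay in PPP2R2C, a regulatory subunit gene of protein phosphatase 2A, with 436 and 350 tags, more than any SORCS2 peak. PSAPL1, MIR4274 and WFS1 had no peak in either list.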

How the data were processed

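The 2 YBX1 libraries had 10275569 and 10190347 tags, of which 10010819 and 9926271 were kept, and the input had 74780414 kept tags. The submitters' processing notes give hg19 as the build and list Bowtie2, Trimmomatic 0.36, MACS 1.4 and bcl2fastq 02.14.01.07. Per the file headers, MACS 1.4.2 called peaks for each replicate against the input, with a p-value cutoff of 1e-05, a shift of 20 bp and 1 tag kept per position. The deposited lists had been filtered by the authors, by a rule not given in the sources used here. The header of the replicate 2 list numbers its alignment differently from the label, and the label was followed. The deposited tag counts are whole tags per peak. The deposited fold enrichment is a ratio over background. The deposited score is 10 times the negative log10 of the p-value, and the deposited false discovery rate, a percent, was 0 throughout. Widths and positions are base pairs of hg19.

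Rows naming SORCS2, overlaps, sites and repeat families were computed with Python 3.11.15 and pandas 2.3.3, and the overlap step was tested on simulated data. A fold within 0.006 of a whole multiple of 13.5 (replicate 1) or 13.6 (replicate 2) was counted as standing at the genome-wide background. The members and gene lists were chosen with earlier results of these data known. Shared regions named with coordinates were, by rule, the 5 strongest by the lower fold, the 5 with the most tags in replicate 1, the first and last, and those off tandem repeats. The genes compared were the other 3 with the most shared regions and the 3 most alike in repeat labels. Values of further sites and listed genes are given for completeness. Some listed genes are not reported here. Older symbols of the listed genes were matched through a RefSeq table of GRCh38, used for names only. Alternatives were a score of at least 100, the stronger part of each list, other overlap rules, other member rules and leaving out a replicate.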

Additional observations from a re-analysis of the deposited data

How the results depend on the processing

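Of 45 alternative values, 31 stayed within a set limit. For shares and for medians of peak values this was the spread between replicates, for counts 1.5 times, and for the tag ratio the spread over shared regions. For the distance between shared regions it was the replicates' spread in another measure, the median distance between neighbouring peaks of a single list. That spread was only 0.00919 kb, so almost any change in the distance exceeded it. Shares and medians with a replicate left out could not exceed the limit, since the main value was the mean of both replicates. Their place among the 31 is therefore no sign of how firm the results are. A score of at least 100 (p at most 1e-10) left a mean of 41.5 peaks per replicate in place of 65, with 84.1% on tandem repeats in place of 74.2%, a median fold enrichment of 74.5 in place of 59.7 and a median distance between shared regions of 22.3 kb in place of 4.73 kb. The part of each list above its median fold left 35 peaks per replicate, 81.1% of them on tandem repeats, and 18 shared regions in place of 28. A reciprocal overlap of 50% lowered the mean share of paired peaks from 74.2% to 26.5% and the shared regions to 17. Joining regions less than 1000 bp apart gave 17 shared regions, 24 regions in either replicate in place of 64 and a median distance of 31.1 kb. Weighting by tags put 79.6% on tandem repeats. Neighbouring genes with a shared peak fell from 20 to 11 when peaks had to lie inside the gene. Leaving out a replicate, in part added after the data were seen, gave 58 to 72 peaks or regions, 70.8% to 77.6% on tandem repeats, and medians of 54.9 to 64.4 for fold enrichment, 11 to 11.5 for tags and 84.5 to 89.5 bp for width. No paired analysis was possible because there was a single group of 2 ChIP libraries and the input carries no replicate of its own. At 10010819 and 9926271 kept tags the lists start at peaks of 5 tags, so weaker sites were not detectable, and the cause of the changes above was not tested beyond the smaller number of peaks that a stricter rule leaves.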
